A study of Homo sapiens with 20 samples.

Results

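Desmosomes are spot-like junctions that fasten neighbouring epithelial cells to each other and anchor their keratin filaments. Their adhesive pairs are the desmosomal cadherins, desmogleins and desmocollins, which bind their counterparts on the next cell through calcium-dependent domains. On the inside of the membrane, the armadillo proteins plakoglobin and the plakophilins bind the cadherin tails, and the plakin desmoplakin ties them to keratin. Periplakin, envoplakin and epiplakin are further plakins that bind intermediate filaments. In simple epithelia such as the bile duct, the usual desmosomal cadherins are DSG2 and DSC2, whereas other isoforms belong to stratified epithelia.

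The genes described here are 10 of the 24222 entries of a count table: the plakophilins PKP1, PKP2 and PKP3, desmoplakin (DSP), desmoglein 2 (DSG2), desmocollin 2 (DSC2), plakoglobin (JUP), epiplakin (EPPK1), periplakin (PPL) and envoplakin (EVPL). They were taken by symbol, each from the 1 RefSeq entry that maps to it. By the RefSeq gene table, DSG2 and DSC2 lie on chromosome 18, JUP and EVPL on 17, PPL on 16, PKP1 on 1, PKP2 on 12, PKP3 on 11, DSP on 6 and EPPK1 on 8. They were set against CDH1, which encodes E-cadherin, the cadherin of the epithelial adherens junction. The RNA came from 20 established human biliary tract cancer lines, with 1 sequencing library per line, so that the line is the replicate and every p-value below measures spread between lines. By site of the tumour, 3 lines were ampullary, 5 extrahepatic, 7 gallbladder and 4 intrahepatic. The line OZ is labelled both extrahepatic and intrahepatic and entered no site comparison. By origin, 7 lines were metastatic, 6 of them from ascites and 1 from a liver metastasis, and 13 came from primary tumours. All lines were cultured tumour cells without added treatment in the labels, and none stands for normal bile duct epithelium. They were supplied by RIKEN (6 lines), KCLB (6), HSRRB (4), DSMZ (2) and Zurich (2).

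Library totals lay between 10.5 and 15.4 M counts, where M stands for mega, and their median was 12.5 M, so that a level of 3 counts, the limit that a count of 0 allows, corresponded to 0.204 to 0.296 counts per M counts (CPM). Intervals of single levels are exact Poisson 95% intervals and, like this limit, cover counting error only. As a check of the labelled tissue, all 8 biliary epithelial markers reached 10 CPM in at least 1 line. Their summed level ran from 344 CPM in HuH28 through a median of 7466 CPM to 13650 CPM in SNU-245. The 4 immune markers summed to between 10.5 CPM and 433 CPM, highest in G415, with 1 of the 4 reaching 10 CPM in any line and CD3E, a T cell marker, under 1 CPM in all 20. The 3 endothelial markers summed to at most 20.5 CPM (OCUG-1), the 3 hepatocyte markers to at most 599 CPM (Mz-ChA-2), the 3 neuroendocrine markers to at most 293 CPM (TGBC2TKB) and the 5 squamous markers to at most 901 CPM (SNU-308). Their part in the levels below was not tested.

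Promoter sequences are shown for 4 of the genes, the desmosomal cadherin pair DSG2 and DSC2 and the plaque genes JUP and DSP, which represent the cadherins and the plaque among the genes with a RefSeq promoter entry. Each window covers 250 bases before to 50 bases after the start of the gene, from RefSeq on build GRCh38.p14, written 5′ to 3′ on the strand of the gene. Capitals mark the letters CACCTG on either strand, which read as CAGGTG on the other. CACCTG is an E-box that repressors of the ZEB and Snail families are known to bind.
DSG2, chr18:31497927-31498226, plus strand: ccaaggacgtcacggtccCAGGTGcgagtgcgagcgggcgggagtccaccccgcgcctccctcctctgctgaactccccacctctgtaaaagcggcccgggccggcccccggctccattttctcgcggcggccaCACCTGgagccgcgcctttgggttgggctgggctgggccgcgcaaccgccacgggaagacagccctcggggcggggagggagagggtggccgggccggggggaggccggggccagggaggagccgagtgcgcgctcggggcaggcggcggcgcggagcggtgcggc
DSC2, chr18:31102372-31102671, minus strand: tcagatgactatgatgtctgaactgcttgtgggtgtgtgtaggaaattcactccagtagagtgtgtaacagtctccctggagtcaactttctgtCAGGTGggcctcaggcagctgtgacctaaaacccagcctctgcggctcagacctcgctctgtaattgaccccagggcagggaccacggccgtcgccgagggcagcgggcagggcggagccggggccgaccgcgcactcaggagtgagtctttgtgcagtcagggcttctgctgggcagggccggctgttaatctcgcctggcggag
JUP, chr17:41786662-41786961, minus strand: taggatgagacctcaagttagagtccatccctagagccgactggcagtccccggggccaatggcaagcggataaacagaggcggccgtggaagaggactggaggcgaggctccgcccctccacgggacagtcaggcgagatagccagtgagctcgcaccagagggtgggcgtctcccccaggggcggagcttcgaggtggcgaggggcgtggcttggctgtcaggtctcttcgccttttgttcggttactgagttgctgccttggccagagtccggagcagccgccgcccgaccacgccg
DSP, chr6:7541421-7541720, plus strand: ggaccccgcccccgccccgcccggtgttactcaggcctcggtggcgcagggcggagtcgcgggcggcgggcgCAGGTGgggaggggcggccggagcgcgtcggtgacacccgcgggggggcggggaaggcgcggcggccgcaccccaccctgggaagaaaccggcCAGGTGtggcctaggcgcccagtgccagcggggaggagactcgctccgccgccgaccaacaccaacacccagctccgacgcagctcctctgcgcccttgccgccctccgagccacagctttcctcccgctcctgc

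The DSG2 window held 2 such E-boxes, 232 and 116 bases before the start, and the DSP window also held 2, at 178 and 85 bases before it. The DSC2 window held 1, at 156 bases before the start, and the JUP window held 0. Of the 5 windows on hand for these genes, which include PKP1, 3 held the E-box, against 20.6% of 35116 RefSeq promoter windows of the same length. The other motifs searched on both strands were ACCGGT, in 0 of the 5 windows and 1.83% of all, TGANTCA, in 0 of the 5 and 7.71% of all, and AGGAAG, in 1 of the 5 (PKP1) and 33.6% of all. A match describes letters only, and no binding was measured.

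The desmosomal cadherins behaved differently from each other across lines. DSG2 (NM_001943) had 0.616 CPM in HuH28, a median of 344 CPM and 1121 CPM in Sk-ChA-1. Apart from HuH28, which had 7 counts (95% interval 0.248 to 1.27 CPM), its lowest line was TGBC14TKB with 52.2 CPM. DSG2 was therefore present at over 50 CPM in 19 of 20 lines, including OCUG-1 with 417 CPM, G415 with 306 CPM and SNU-1079 with 700 CPM, 3 lines with under 2 CPM of CDH1. DSC2 (NM_004949) had a median of 44.0 CPM and was highest in SNU-245, with 197 CPM. It had 0 counts in HuH28, which allows up to 0.264 CPM, 0.0756 CPM in OCUG-1 and 0.646 CPM in G415. Per kb of transcript, DSG2 made up 61.6% to 100% of the 2 cadherins together, with a median of 85.0%, and it exceeded DSC2 in all 20 lines. The 100% was in HuH28, where it rests on 7 counts of DSG2 and 0 of DSC2, so that line says little about their balance.

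Plakoglobin was the most abundant of the 10 genes in most lines. JUP (NM_002230), the armadillo protein shared by desmosomes and adherens junctions, had 1.58 CPM in G415, a median of 586 CPM and 1263 CPM in TKKK. After G415 (95% interval 0.990 to 2.39 CPM), HuH28 with 6.60 CPM and OCUG-1 with 20.9 CPM were lowest. Per kb of transcript, JUP was the highest of the 10 genes in 14 lines, DSG2 in 5 and PKP2 in 1. That last line was HuH28, where PKP2 reached only 2.86 CPM per kb. DSP (NM_004415), which links the plaque to keratin, had 0.378 CPM in OCUG-1 and 0.704 CPM in HuH28, a median of 273 CPM and 837 CPM in TKKK. The 18 lines other than OCUG-1 and HuH28 had at least 146 CPM of DSP, and G415, which had the least JUP, had 435 CPM.

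The plakophilins, armadillo proteins that cluster the other desmosomal components, divided into 1 gene that was nearly silent and 2 that changed places. PKP1 (NM_000299), the plakophilin of stratified epithelia, was under 1 CPM in 15 lines, had 0 counts in 7, and reached 5.37 CPM in NOZ and 3.90 CPM in HuCCT1. PKP2 (NM_004572), the plakophilin of simple epithelia and heart, had 4.83 CPM in TGBC2TKB, a median of 54.3 CPM and 235 CPM in Mz-ChA-2. PKP3 (NM_007183), which is found in most simple and stratified epithelia, had 0.0879 CPM in HuH28, a median of 131 CPM and 237 CPM in SNU-478. Per kb, PKP3 made up over 50% of the 3 plakophilins in 14 lines and PKP2 in the other 6, which were HuH28 (98.4%), Mz-ChA-2 (94.3%), SNU-1079 (83.6%), Sk-ChA-1 (70.1%), G415 (58.6%) and OCUG-1 (51.2%). The share of PKP2 was lowest in TGBC2TKB, at 11.96%, with a median of 23.9%. Of the 50-base windows of the PKP2 transcript, 8.13% recur in other genes, and the counting of such reads is not given in the sources used here.

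The other plakins were also expressed in most of these lines, and PPL and EVPL, which form heterodimers, were not always expressed together. PPL (NM_002705) had 0.942 CPM in SNU-1079 and 1.15 CPM in G415, a median of 145 CPM and 620 CPM in TGBC18TKB. EVPL (NM_001988) had 0.176 CPM in HuH28, 0.257 CPM in SNU-1079 and 0.391 CPM in Mz-ChA-2, a median of 169 CPM and 679 CPM in EGI-1. G415 thus had EVPL at 164 CPM with almost no PPL, and Mz-ChA-2 had PPL at 62.7 CPM with almost no EVPL. Per kb, EVPL made up 0.585% of the pair in Mz-ChA-2 and 99.3% in G415, with a median of 47.4%. EPPK1 (NM_031308), a keratin-binding plakin made of repeats, had 0.176 CPM in HuH28, a median of 24.8 CPM and 107 CPM in TGBC14TKB. Its level is uncertain, because 50.8% of the 50-base windows in its 16002-base transcript recur within that transcript.

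**Figure D1:**
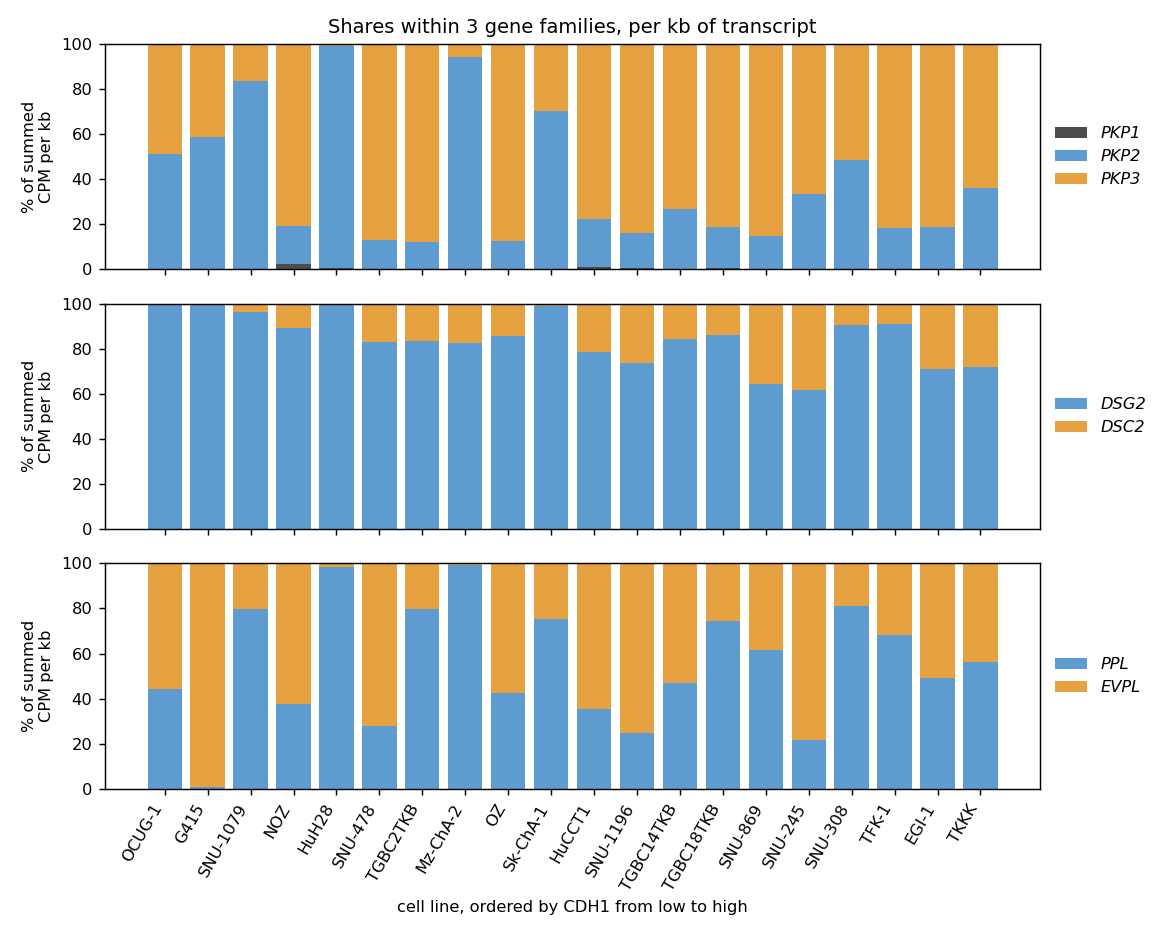
Share of each plakophilin (top), of DSG2 and DSC2 (middle) and of PPL and EVPL (bottom) in the summed CPM per kb of its family, in percent, for 20 lines ordered by CDH1 from low to high. PKP2 exceeded 50% in 6 lines, DSG2 exceeded 50% in all 20, and EVPL ranged from 0.585% in Mz-ChA-2 to 99.3% in G415. In HuH28 the share of DSG2 rests on 7 counts of DSG2 and 0 of DSC2.

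Low levels of these transcripts fell in a few lines and took different forms. A gene was counted as low in a line when its CPM lay under 0.1 of its median over the 20 lines, and PKP1 was left out of this count because it was near 0 in most lines. Of the other 9 genes, 14 lines had 0 low. HuH28, an intrahepatic primary line, had 8 low, all except PKP2, which stood at 12.1 CPM. OCUG-1, a gallbladder line from ascites, had 5 low (PKP3, DSP, DSC2, JUP and EPPK1). G415, also metastatic and from the gallbladder, had 3 low (DSC2, JUP and PPL). SNU-1079, an intrahepatic primary line, had 3 low (PKP3, PPL and EVPL). Mz-ChA-2 had 2 low (PKP3 and EVPL), and TGBC2TKB had 2 low (PKP2 and EVPL). DSG2 was low in HuH28 alone. The share of all genes that are low by this rule in each line was not computed. These counts therefore describe the members only and do not set them apart from other genes.

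**Figure D2:**
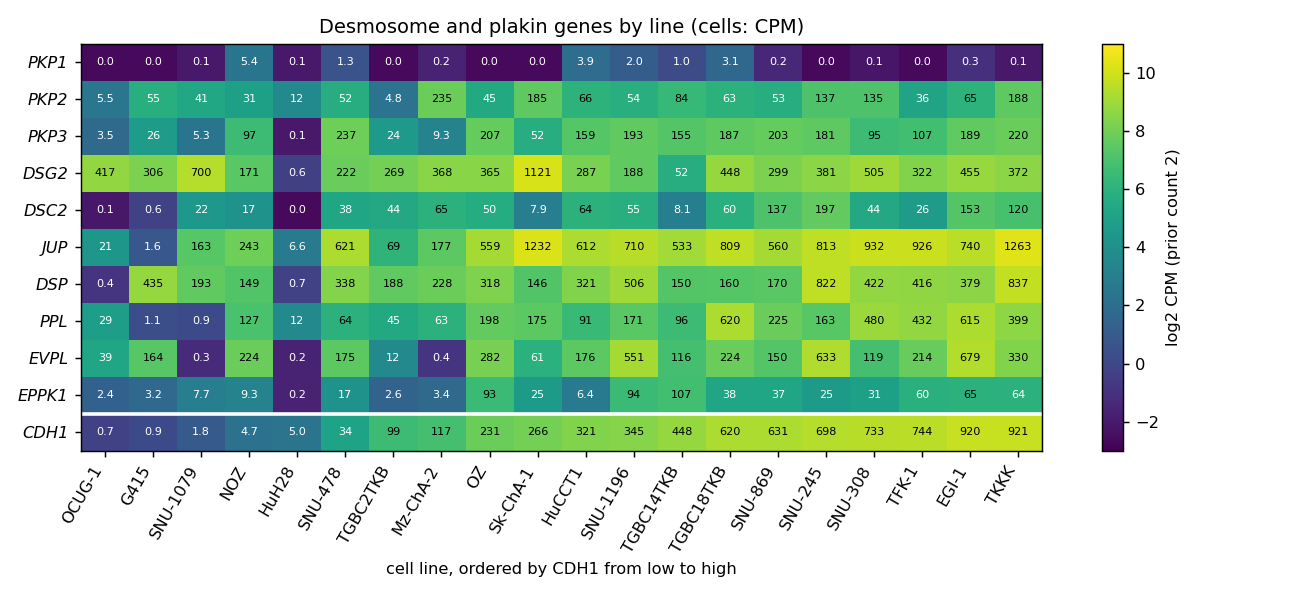
Levels of the 10 genes and of CDH1 (below the white line) in the 20 lines, ordered by CDH1 from low to high. Each cell prints the CPM and is coloured by log2 CPM (prior count 2). HuH28 is low for 8 of the genes, all but PKP2 and PKP1, and has 5.01 CPM of CDH1. PKP1, with 1 count in HuH28, was left out of the count of low genes. NOZ, with 4.72 CPM of CDH1, keeps 149 CPM of DSP and 243 CPM of JUP.

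CDH1 itself split the lines unevenly. It had under 10 CPM in 5 lines, which were OCUG-1 (0.681 CPM), G415 (0.933 CPM), SNU-1079 (1.80 CPM), NOZ (4.72 CPM) and HuH28 (5.01 CPM). The next line, SNU-478, had 34.0 CPM, the median was 293 CPM and TKKK was highest with 921 CPM. The widest step in CDH1, 2.73 on the log2 scale, lay between HuH28 and SNU-478 and took 0.27 of the range. NOZ combined this low CDH1 with 0 low genes of the 9, and had 243 CPM of JUP, 171 CPM of DSG2 and 127 CPM of PPL. Markers of mesenchymal cells moved with part of this pattern. Their summed level over 9 genes had a median of 327 CPM and stood at 25890 CPM in HuH28, 15615 CPM in OCUG-1, 7529 CPM in SNU-1079, 1447 CPM in NOZ and 410 CPM in G415. The vimentin gene VIM, 1 of these 9 and picked after its value was seen, was at 0.0718 CPM in G415. Nearly all of the 410 CPM in that line therefore came from other genes of the list. In bulk RNA, fewer cells with a transcript and less transcript per cell cannot be told apart, and the part of the mesenchymal programme in these levels was not tested.

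**Figure D3:**
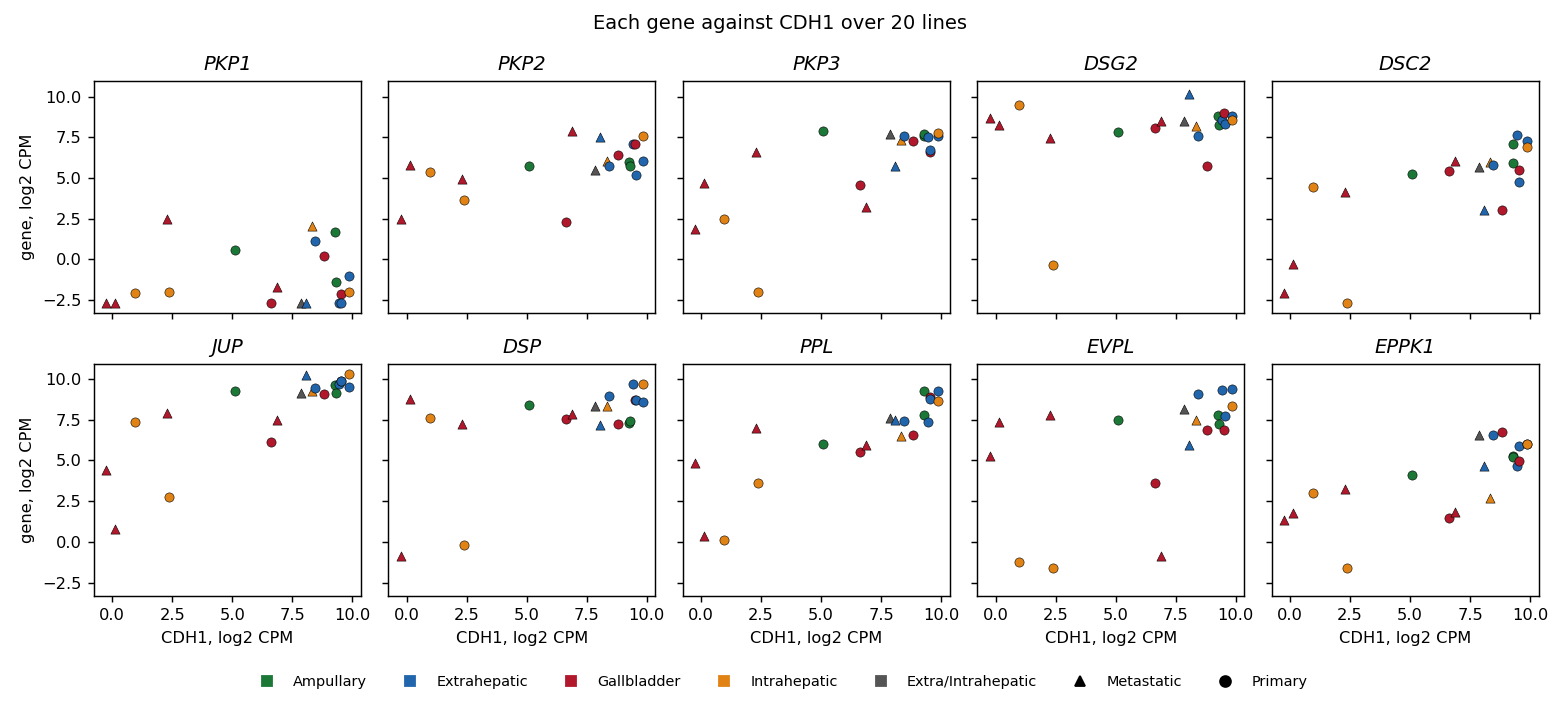
Log2 CPM (prior count 2) of each gene against that of CDH1 in 20 lines. Colour gives the site, triangles are metastatic lines and circles primary lines. PPL and JUP climb with CDH1 over most of its range, while DSG2 lies over 50 CPM in 19 of 20 lines at any CDH1 level.

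Of the 10 genes, PPL and EPPK1 were higher in lines with more CDH1. The question was whether desmosome and plakin genes vary with E-cadherin, and a slope on log2 CDH1 CPM was fitted to all genes with edgeR's quasi-likelihood test and Benjamini-Hochberg adjustment. Of 11968 genes that passed the filter on low counts, 88 or 0.735% passed an adjusted p under 0.05, 49 of them (0.409%) upward. PKP1 did not pass the filter, and 2 of the other 9 genes were called, both upward. PPL had a slope of 0.44 ± 0.0971 log2 units per log2 unit of CDH1 (SE, n = 20 lines, adjusted p = 0.0351 from edgeR). EPPK1 had a slope of 0.44 ± 0.102 (SE, adjusted p = 0.0463 from edgeR). All 9 estimates were above 0, with a median of 0.33 against 0.0023 over all genes tested. Unadjusted p was under 0.05 for 6 of the 9, all upward, against 16.6% of all genes and 8.74% upward.

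The remaining 7 genes missed the threshold. JUP came closest, with a slope of 0.42 ± 0.103 (SE, adjusted p = 0.0561 from edgeR). DSC2 had the same size of slope with a wider error, 0.44 ± 0.126 (SE, adjusted p = 0.0828 from edgeR). Slopes were 0.33 for PKP3, 0.22 for EVPL, 0.21 for PKP2 and 0.15 for DSP, with edgeR adjusted p of 0.148, 0.419, 0.193 and 0.487 in that order. DSG2 had the smallest, 0.02 ± 0.0820 (SE, adjusted p = 0.911 from edgeR). In the 20 fits that left out 1 line, DSC2 and EVPL each passed the filter in only 3 and were otherwise not tested. With EGI-1, G415, HuH28, TGBC18TKB or TKKK left out, none of the members tested was called. EPPK1 lost its call in 13 of the 20 fits. The slopes moved little over these 20 fits, between 0.41 and 0.54 for PPL and between 0.41 and 0.48 for EPPK1. The adjusted p of PPL reached at most 0.0677 in edgeR. None was called with site or origin as a covariate either, although the median slope of the members tested was 0.34 with site and 0.35 with origin, and only PPL was called with repository as a covariate (slope 0.78, adjusted p = 0.0161 from edgeR).

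**Figure D4:**
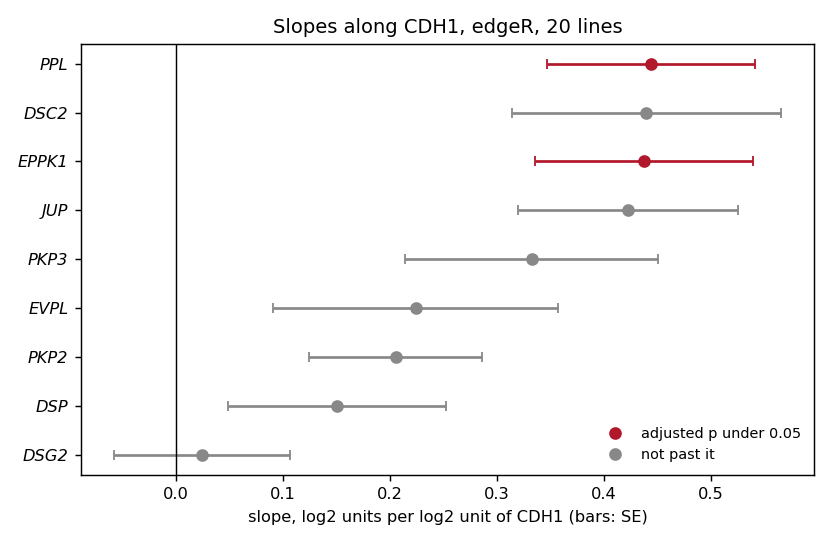
Slope of each gene on CDH1 in log2 units per log2 unit of CDH1, from edgeR over 20 lines, with bars for 1 SE. PPL and EPPK1 (red) had adjusted p under 0.05, and the slope of DSG2 lay at 0.02.

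Rank correlations with CDH1 gave a similar order, as a description over 20 lines that share their libraries and depths between genes. Spearman's rho was 0.85 for PPL, 0.82 for JUP, 0.71 for EPPK1 and 0.69 for DSC2. Among 16614 genes ranked by rho with CDH1, PPL stood at rank 13, JUP at 25, EPPK1 at 167 and DSC2 at 220. It was 0.58 for PKP3, 0.57 for EVPL, 0.54 for PKP2, 0.51 for DSP, 0.24 for DSG2 and 0.089 for PKP1. Pearson's r for PPL was 0.84 over all lines, 0.96 within the 6 KCLB lines and 0.97 within the 6 RIKEN lines, and 0.83 without OCUG-1 and G415, which lay farthest from the median of CDH1. For JUP it was 0.81 over all lines, 0.90 within KCLB, 0.99 within RIKEN and 0.70 without those 2 lines. For EPPK1 it was 0.72 over all lines, 0.77 within KCLB, 0.68 within RIKEN and 0.67 without them. For DSC2 it was 0.76 over all lines, 0.76 within KCLB, 0.86 within RIKEN and 0.58 without them. For DSG2 it was 0.24 over all lines, -0.40 within KCLB, -0.11 within RIKEN and 0.40 without them, and rho was 0.086 within KCLB and 0.43 within RIKEN. For PPL, JUP, EPPK1 and DSC2, rho was 0.83, 0.83, 0.49 and 0.66 within KCLB, in that order. Within RIKEN it was 0.94, 0.94, 0.77 and 0.71. The KCLB lines include SNU-1079 and the RIKEN lines G415, with 1.80 and 0.933 CPM of CDH1, and r within 6 lines leans on such a line. Among the 15 lines above the step in CDH1, r was 0.81 for PPL, 0.57 for JUP, 0.57 for EPPK1, 0.29 for DSC2 and 0.14 for DSG2.

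Pairs of the 10 genes differed widely in how far they went together. Over the 45 pairs, rho had a median of 0.41 and ran between -0.41 for PKP1 with DSG2 and 0.82 for JUP with PPL. It was over 0.5 in 17 pairs and below 0 in 3. Among 16614 genes, 0.0782% had a rho with JUP as high as that of PPL, and 6.50% a rho with DSC2 as high as that of JUP, which was 0.50. PKP3 went closely with EVPL (rho 0.77) and EPPK1 (rho 0.72), and EPPK1 with PPL (rho 0.74). DSG2 had rho of 0.23 with DSC2, its partner cadherin, a value that 16.7% of genes reached with DSG2, 0.12 with DSP and -0.093 with PKP3.

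The balance within 6 pairs of genes was also set against CDH1, as the difference of their log2 CPM, with a two-sided permutation test and adjustment over the 6 pairs. DSC2 minus DSG2 rose with CDH1 (r = 0.67, adjusted p = 0.00738 by permutation, rho = 0.53, adjusted p = 0.0522 by permutation). The difference ran from -10.80 in OCUG-1, the line with the least CDH1, to -0.95 in SNU-245. OCUG-1 had 1 count of DSC2, so that its value depends on the prior count and was -11.82 with a prior count of 0.5. Sk-ChA-1, with 266 CPM of CDH1, also had a wide difference, -7.13. The rise with CDH1 rests on OCUG-1 and G415, since r was 0.31 without them. It was 0.18 in the 15 lines above the step (adjusted p = 0.674 by permutation). PKP1 minus PKP3 fell with CDH1 (r = -0.64, adjusted p = 0.00738 by permutation, rho = -0.66, adjusted p = 0.0128 by permutation). With PKP1 at or near 0 counts in most lines, this difference follows mainly PKP3 and the prior count of 2. With a prior count of 0.5 it no longer passed (r = -0.51, adjusted p = 0.0672 by permutation). PKP2 minus PKP3 (r = -0.44, adjusted p = 0.0987 by permutation), PPL minus EVPL (0.17, 0.572), JUP minus DSP (0.20, 0.572) and EPPK1 minus DSP (-0.014, 0.956) did not pass.

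Differences between tumour sites were not detected for any of the 10 genes. Each site was contrasted with the mean of the other 3 in edgeR over 19 lines and 16615 genes, all 10 members included. For ampullary lines 0 of the 10 genes were called, against 0.00602% of all genes, and their median log2 difference was 0.25 against -0.11 over all genes. For extrahepatic lines 0 were called, against 0% of all genes, with a median of 0.88 against -0.018. For gallbladder lines 0 were called, against 0%, with a median of -0.72 against 0.11, and for intrahepatic lines 0 were called, against 0%, with a median of -0.13 against 0.044. The joint test of 4 sites called 0 of the 10, against 0.00602% of all genes. At an unadjusted p under 0.05, 0 of the 10 passed in each of these 5 tests, against 5.25% of all genes for ampullary, 7.01% for extrahepatic, 12.3% for gallbladder and 9.47% for intrahepatic lines and 10.7% in the joint test, and DESeq2 and limma-voom also called 0. The medians depended on single lines and on the method. Over leaving out 1 line, the ampullary median ran between -0.076 (without TGBC18TKB) and 0.76 (without TKKK), the extrahepatic between 0.62 (without SNU-245) and 1.17 (without TKKK), the gallbladder between -1.07 (without NOZ) and -0.30 (without TKKK), and the intrahepatic between -1.04 (without TKKK) and 0.27 (without HuH28). In limma-voom they were 1.52, 1.67, -1.06 and -1.78 in that order. The smallest adjusted p of a member in edgeR was 0.952 for ampullary, 0.793 for extrahepatic, 0.583 for gallbladder and 0.892 for intrahepatic lines.

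The spread within sites was wide. JUP had 809, 560 and 621 CPM in the 3 ampullary lines and 740, 710, 813, 926 and 1232 CPM in the 5 extrahepatic lines. It had 1.58, 177 and 932 CPM as lowest, median and highest of the 7 gallbladder lines, and 6.60, 163, 612 and 1263 CPM in the 4 intrahepatic lines. Ampullary and extrahepatic lines were thus uniformly high, and the other 2 sites held both high and very low lines. JUP averaged 884 ± 211 CPM in extrahepatic lines (SD, n = 5) and 282 ± 339 CPM in gallbladder lines (SD, n = 7). EVPL had the smallest p for extrahepatic lines, with 428 ± 274 CPM (SD, n = 5), a log2 difference of 1.71 ± 1.07 (SE). PKP3 had the smallest p for ampullary and for gallbladder lines. It averaged 209 ± 25.4 CPM in ampullary lines (SD, n = 3) and 58.4 ± 57.5 CPM in gallbladder lines (SD, n = 7), with log2 differences of 1.16 ± 1.02 and -1.28 ± 0.884 (SE) from the other sites. PPL had the smallest p for intrahepatic lines, with 126 ± 187 CPM (SD, n = 4) and a log2 difference of -0.86 ± 1.13 (SE), which ran between -2.70 without TKKK and -0.44 without SNU-1079.

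**Figure D5:**
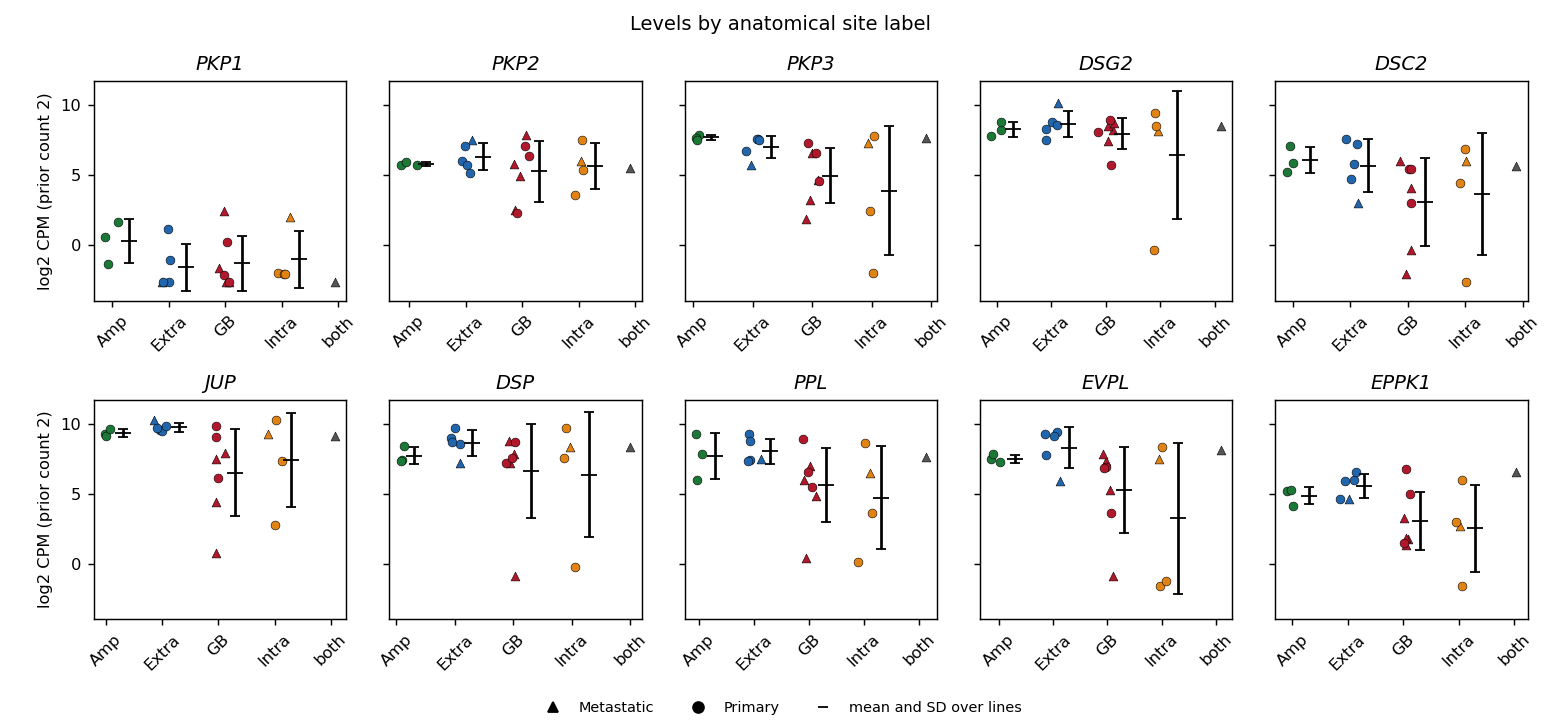
Log2 CPM (prior count 2) of each gene in ampullary (Amp, n = 3), extrahepatic (Extra, n = 5), gallbladder (GB, n = 7) and intrahepatic (Intra, n = 4) lines and in OZ (both), with mean and SD of the log2 values. Triangles are metastatic and circles primary lines. Gallbladder and intrahepatic lines spread over the widest range for JUP, DSP, PPL and EVPL. The 3 ampullary lines had more PKP3 (187 to 237 CPM) than any of the 7 gallbladder lines (3.48 to 155 CPM), although PKP3 was called for neither site. How many of all genes separate these sites in the same way was not counted.

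Metastatic and primary lines were not separated either. In edgeR over 20 lines and 14843 genes, 0 of the 9 genes tested were called, against 0% of all genes. At an unadjusted p under 0.05 again 0 of the 9 passed, against 7.73% of all genes, and DESeq2 and limma-voom called 0. Their median log2 difference, metastatic minus primary, was -0.79 against -0.023 over all genes, with 2 above 0 and 7 below, and was -0.49 without OCUG-1. PPL had the smallest p, with 97.7 ± 73.2 CPM in metastatic lines (SD, n = 7) and 256 ± 226 CPM in primary lines (SD, n = 13), and an edgeR adjusted p of 0.741. JUP averaged 407 ± 436 CPM in metastatic lines and 627 ± 365 CPM in primary lines. CDH1 averaged 134 ± 138 CPM in metastatic lines and 477 ± 345 CPM in primary lines, and 3 of the 5 lines with under 10 CPM of CDH1 were metastatic gallbladder lines, so that site, origin and CDH1 cannot be told apart there.

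Other genes of the same structures were set beside the 10. Of 8 further desmosome genes, 2 passed the filter and 0 were called along CDH1. PERP, a membrane protein of desmosomes, had a slope of 0.19 (adjusted p = 0.141 from edgeR) and the plakophilin relative PKP4 a slope of 0.06 (adjusted p = 0.491 from edgeR). The cadherins of stratified epithelia were mostly silent. DSG1, DSG4 and DSC1 stayed at or under 1.37 CPM, whereas DSG3 and DSC3 reached 198 and 102 CPM in SNU-308, a gallbladder line that also had 586 CPM of TP63, the squamous transcription factor. Of the other plakins, which have 4 entries, 0 were called and all 4 slopes were below 0. The entry of MACF1, a plakin that joins actin to microtubules, with the smallest p had a slope of -0.15 (adjusted p = 0.0800 from edgeR), and that of its second entry was -0.24 (adjusted p = 0.0819 from edgeR). Of 12 cornified envelope genes in the table, 2 passed the filter and 0 were called. SCEL, or sciellin, had a slope of 0.11 (adjusted p = 0.764 from edgeR) and TGM1, a transglutaminase, 0.0042 (adjusted p = 0.985 from edgeR). IVL, or involucrin, which lies in the envelope with PPL and EVPL in skin, had at most 4.07 CPM.

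Among neighbouring junction systems, 1 of 8 adherens junction genes was called. CTNND1, which encodes the p120 catenin that stabilises E-cadherin, had a slope of 0.20 (adjusted p = 0.00135 from edgeR), while CTNNB1, the β-catenin gene and close relative of JUP, had -0.02 (adjusted p = 0.902 from edgeR). Of 11 tight junction genes 0 were called, and 9 had an upward unadjusted p under 0.05, against 8.74% of all genes. The same count was 2 of the 8 adherens junction genes, 5 of the 9 keratin genes and 2 of the 7 hemidesmosome genes. The scaffold gene PATJ had a slope of 0.32 (adjusted p = 0.0591 from edgeR) and TJP3 one of 0.61 (adjusted p = 0.0605 from edgeR). Of 9 keratin genes, which encode the filaments to which desmosomes attach, 0 were called, with a slope of 0.37 for KRT15 (adjusted p = 0.0860 from edgeR) and 0.23 for KRT8 (adjusted p = 0.0895 from edgeR). Of 7 hemidesmosome genes 0 were called, with a slope of 0.34 for the laminin chain gene LAMB3 (adjusted p = 0.106 from edgeR) and 0.46 for the collagen gene COL17A1 (adjusted p = 0.193 from edgeR). Among the epithelial regulators, the splicing regulator ESRP2 was called upward, with a slope of 0.27 (adjusted p = 0.0347 from edgeR).

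The filter asks for counts in about 17 of the 20 lines, and removed genes that are silent in the lines with low CDH1. With a filter of 10 counts in at least 3 lines, chosen after seeing the data, 413 of 16738 genes (2.47%) were called, 1.26% upward and 1.21% downward. PPL, EPPK1 and JUP were then the 3 called of 10 desmosome and plakin genes, JUP with adjusted p = 0.0410 from edgeR. Under that filter 7 of 13 epithelial regulators were called upward, among them ESRP1 with a slope of 1.06 (adjusted p = 0.00856 from edgeR) and GRHL2, a factor known to activate CDH1, with 0.88 (adjusted p = 0.0192 from edgeR). Of 14 tight junction genes, 4 were called upward. Of 6 repressors of epithelial genes 0 were called, with a median slope of -0.33. TWIST1 had the smallest p of them and went upward, with a slope of 1.07 (adjusted p = 0.0632 from edgeR). It was under 1 CPM in 17 lines and reached at most 6.23 CPM. The slopes of the others were below 0, and ZEB1, with the next smallest p, had -0.43 (adjusted p = 0.0922 from edgeR). ZEB1 had 201 CPM in G415, 150 CPM in HuH28, 63.8 CPM in SNU-1079, 55.5 CPM in OCUG-1 and 36.9 CPM in NOZ, and 0.0985 CPM in SNU-245. It was also at 67.5 CPM in TGBC2TKB and 52.1 CPM in Sk-ChA-1, which had CDH1 at 98.5 and 266 CPM.

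Genes with the most similar pattern to each member over the 20 lines were found by rho among 16614 genes. CDH1 was among the nearest 3 of PPL alone, with rho of 0.85, beside CAPN1 with 0.85 and EEIG1 with 0.85. The nearest of JUP were C1orf116 (0.89), LINC01637 (0.88) and UPK2 (0.87), of EVPL FAM83H (0.89), CTDSP1 (0.87) and ARHGAP27 (0.86), and of EPPK1 FGD3 (0.87), DOK7 (0.86) and TMEM61 (0.84). Those of DSC2 were TYW5 (0.87), IFNLR1 (0.86) and OVOL1 (0.86). The nearest of PKP3 were PRSS22 (0.89), EPS8L1 (0.88) and RIPK3 (0.87). For DSG2 it was DSG2-AS1 (0.85), whose transcript overlaps it on the other strand, so that their reads may not be separable, then HNF4G (0.79) and PFKFB3 (0.74). For PKP2 they were C11orf52 and its readthrough HSPB2-C11orf52, which share reads (both 0.78), and HES1 (0.77). Values were lower for PKP1, with SORBS2 (0.76), ZGLP1 (0.72) and SF3B2 (0.71), and for DSP, with H2BC9 (0.72), ACTR1B (0.72) and FDPSP2 (0.71). The mean centred log2 CPM of the 10 genes went most closely with PRSS22 (0.92), LINC02894 (0.92), the tight junction gene CLDN4 (0.91), CAPN8 (0.91) and MFSD6 (0.90), and CDH1 ranked 35th with 0.85.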

How the data were processed

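Per the labels' protocols, libraries were made with a stranded poly(A) mRNA kit. The authors deposited raw read counts per RefSeq entry, and the submitters' processing notes name Trimmomatic, TopHat2 2.0.8, Picard 1.69 and featureCounts and the builds hg19 and GRCh37. Neither the strand setting nor the annotation release is given in the sources used here. Symbols came from a RefSeq gene table for 23512 entries and from GENCODE for 355, and the 355 unnamed entries held 0.484% of counts. CPM used TMM-scaled library sizes, and per-kb levels the transcript length. JUP took its length from another RefSeq transcript. The fits used edgeR 4.0.16, run in R 4.3.3 (filterByExpr, robust quasi-likelihood, two-sided), with DESeq2 1.42.0 and limma 3.58.1 (voom) as alternatives, and the scripts were tested on simulated data. The SE of an edgeR slope or log2 difference was derived from its test, as the absolute estimate over the square root of its F statistic. Adjusted p-values cover all genes tested. Genes outside the 10 members and CDH1 were named by rule: called list genes, or the 2 of smallest p, the 3 nearest of each member and the 5 nearest of their mean. CTNNB1, IVL, TP63, VIM, DSG and DSC relatives and the levels of ZEB1 were added after their values were seen. Some genes of the lists are not reported here. The members and lists were chosen with earlier results of these data known.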

Additional observations from a re-analysis of the deposited data

Results flagged for a closer look

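In 40 combinations of a gene and a group of lines, Dixon's criterion at 95% on log2 CPM picked out 6. Site and origin groups share lines, so the combinations are not independent. The 6 therefore cannot be set against the 1 in 20 that chance flags in independent, normally distributed values. PKP1 in HuCCT1, at 3.90 CPM, was far above the other intrahepatic lines, of which the nearest had 0.0879 CPM. Those other lines each had 1 count of PKP1, so that almost any different value would be picked out there. DSG2 in HuH28, at 0.616 CPM, was far below the other intrahepatic lines, of which the nearest had 287 CPM. DSP in OCUG-1, at 0.378 CPM, was far below the other gallbladder lines, the nearest with 149 CPM. The same value, 0.378 CPM, was far below the other metastatic lines, the nearest with 146 CPM. PPL in G415, at 1.15 CPM, was far below the other metastatic lines, the nearest with 29.04 CPM. EVPL in Mz-ChA-2, at 0.391 CPM, was far below the other metastatic lines, the nearest with 38.9 CPM.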

How the results depend on the processing

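No paired analysis was possible because replicate numbers follow accession order only. Along CDH1, where edgeR called 2 of the 9 genes, DESeq2 called 5, limma-voom 4, the fit with repository 1, the fit on the rank of CDH1 1, and the fits with site, with origin or without HuH28 0. The 2 subsets chosen after seeing the data, the 15 lines above the step in CDH1 and the lines without HuH28 and OCUG-1, gave 0. Leaving out 1 line gave 0 to 3 of the members that passed the filter. Counts of genes called along CDH1 (88) became 806 with DESeq2, 148 with limma-voom, 776 with no filter, 413 with 10 counts in 3 lines, 29 with repository, 10 with site, 32 with origin, 54 without HuH28, 41 without HuH28 and OCUG-1, 0 in the 15 lines, and 31 to 126 without 1 line. The slope of DSG2 along CDH1 was -0.0262 with repository, -0.0145 with site and -0.0020 without HuH28, and -0.0020 to 0.0747 over leaving out 1 line. PKP1 minus PKP3 had r of -0.51 with a prior count of 0.5 and -0.41 in the 15 lines, and DSC2 minus DSG2 had 0.18 there. PPL minus EVPL turned to -0.16 in the 15 lines, and EPPK1 minus DSP to 0.0488 without HuH28 and 0.42 in the 15 lines. Between sites and by origin, 0 of the 10 genes were called under every alternative run, while DESeq2 called 133 ampullary, 188 extrahepatic, 382 gallbladder, 267 intrahepatic, 312 joint and 181 metastatic genes of all, against 1, 0, 0, 0, 1 and 0 in edgeR. The causes were not tested. Depth limits only levels near 3 counts.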
